A study of Mus musculus with 20 samples.

Results

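Red cell RNA in the mouse abdominal aorta was followed through 7 genes of the 43422 in the deposited tables. Of these, 4 encode the chains of adult hemoglobin (Hba-a1, Hba-a2, Hbb-bs and Hbb-bt), and the other 3 encode proteins of the red cell line (Alas2, Slc4a1 and Bpgm). They were taken by name, to ask whether globin RNA and the RNA of other erythroid genes moved together from mouse to mouse, as they would if blood had stayed in the tissue. The mice were C57BL/6, aged 6 months on the labels (the study's methods give a younger age at the start of infusion), and either WT or Plod1-/-. Plod1 encodes lysyl hydroxylase 1 (LH1), an enzyme that modifies collagen, and the knockout is not restricted to a tissue. Mice of each genotype were infused with saline or with angiotensin II (Ang II), a peptide that raises blood pressure, at 1000 ng/kg per minute, and the aorta was taken on day 14. Genotype and infusion together made 4 groups of 5 mice, each mouse with 1 RNA sequencing library. Levels are FPKM, the number of sequenced fragments scaled to the length of the transcript and to the size of the library, so that values can be compared between genes.

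Mature mammalian red cells have no nucleus and make no new RNA, but young ones released from the marrow, the reticulocytes, still carry a store of globin messages. Hemoglobin joins alpha chains, from Hba-a1 and Hba-a2, with beta chains, from Hbb-bs and Hbb-bt, and each chain holds a heme. Alas2 is the erythroid form of the enzyme that starts heme synthesis, Slc4a1 is band 3, the anion exchanger of the red cell membrane, and Bpgm makes 2,3-bisphosphoglycerate, which lowers the affinity of hemoglobin for oxygen. Red cells and their precursors are the main source of adult hemoglobin, although alpha globin has also been described in the endothelium of small arteries. In bulk tissue, more red cells and more RNA per red cell cannot be told apart.

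The 4 globin genes lie in 2 clusters on GRCm38, the mm10 build that the submitters' processing notes name. Hba-a1 (ENSMUSG00000069919, chromosome 11 from 32283511 to 32284465) lies 12.0 kb before Hba-a2 (ENSMUSG00000069917, chromosome 11 from 32296489 to 32297298). Hbb-bt (ENSMUSG00000073940, chromosome 7 from 103812524 to 103813996) and Hbb-bs (ENSMUSG00000052305, chromosome 7 from 103826534 to 103828096) lie 12.5 kb apart. Alas2 (ENSMUSG00000025270) lies on chromosome X from 150547375 to 150570638, Slc4a1 (ENSMUSG00000006574) on chromosome 11 from 102348824 to 102366203, and Bpgm (ENSMUSG00000038871) on chromosome 6 from 34476207 to 34505613. The coding sequences of Hba-a1 and Hba-a2 in GENCODE release M21 differ at 1 base of 429, with an identical run of 380 bases, and those of Hbb-bs and Hbb-bt differ at 1 base of 444, with an identical run of 416. Reads within such runs fit both copies, so the split between the copies of a pair is uncertain, and their sums, the alpha and the beta globin total, are the safer values. Alas2 overlaps Apex2, which runs the other way, and reads carried no strand, but Apex2 was between 0.963 and 2.16 FPKM in the 20 mice.

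RefSeq promoters (GRCm38.p6) matched 6 of the 7 genes. The 200 bases before the RefSeq start are printed for an alpha globin, a beta globin, Alas2 and Bpgm, because globin and Alas2 RNA changed together below and Bpgm RNA changed far less. Capitals mark the letters searched for, which were the GATA core on both strands (spelled AGATAA, or with T as its first letter, with G as its last letter, or with both), CACCC on both strands, CCAAT on both strands, and TATAA on the gene's own strand. In the windows printed, no match overlapped another.
Hba-a2, chr11:32296292-32296491, plus strand: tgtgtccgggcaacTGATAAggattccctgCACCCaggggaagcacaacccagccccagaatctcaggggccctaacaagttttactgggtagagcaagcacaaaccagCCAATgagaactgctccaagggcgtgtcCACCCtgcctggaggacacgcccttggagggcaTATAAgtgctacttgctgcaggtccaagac
Hbb-bs, chr7:103827929-103828128, minus strand: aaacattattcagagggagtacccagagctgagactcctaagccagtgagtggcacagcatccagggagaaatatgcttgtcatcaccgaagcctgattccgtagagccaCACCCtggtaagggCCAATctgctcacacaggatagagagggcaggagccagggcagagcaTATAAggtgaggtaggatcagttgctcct
Alas2, chrX:150547217-150547416, plus strand: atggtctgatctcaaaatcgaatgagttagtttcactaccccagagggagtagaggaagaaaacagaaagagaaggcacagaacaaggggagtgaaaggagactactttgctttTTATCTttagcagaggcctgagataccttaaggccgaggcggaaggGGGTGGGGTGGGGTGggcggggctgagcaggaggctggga
Bpgm, chr6:34476156-34476355, plus strand: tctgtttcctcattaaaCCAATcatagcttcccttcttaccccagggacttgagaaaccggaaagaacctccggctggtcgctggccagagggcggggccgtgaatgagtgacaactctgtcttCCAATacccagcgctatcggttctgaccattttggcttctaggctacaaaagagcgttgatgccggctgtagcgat
The Hba-a2 window held all 4 kinds of letters, as did that of Hba-a1, which aligned with it without a mismatch and with an offset of 3 bases. The Hbb-bs window held CACCC as well as CCAAT and also TATAA, Alas2 a GATA core and 3 copies of CACCC on the reverse strand, and Bpgm CCAAT alone. Among 32851 RefSeq promoter windows of the same length, 21.4% held a GATA core, 45.5% held CACCC, 29.3% held CCAAT, 13% held TATAA and 0.387% held all 4. These matches describe the letters and are not binding sites.

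The genotype labels were checked with Plod1, which was at 22.8 FPKM or above in all 10 WT mice and at 0.0415 FPKM or below in all 10 Plod1-/- mice. The absolute depth is unknown without read counts. Judged by the smallest nonzero values of rarely detected genes, the 20 libraries had relative depths of 0.902 to 1.09. Only values close to the lowest of each gene entered this estimate. It therefore could not have shown a wide spread, and equal depth is not established. Genes of smooth muscle were present in every group, with a summed level of 8 markers of 14270 to 20600 FPKM in saline-treated WT mice and of 2352 to 17060 FPKM in Ang II-treated Plod1-/- mice. Xist, which marks female cells, stood at 15.1 FPKM in saline-treated Plod1-/- replicate 5 and, with 7.93 FPKM, in replicate 1 of Plod1-/- mice under Ang II, against at most 0.0328 FPKM in the other 18 libraries. The study's methods describe male mice only. Group fits of some genes and the 4 main correlations are therefore also given without these 2 libraries. Ratios, slopes, the other gene lists and the ranking of genes include them.

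Globin RNA was present in every one of the 20 aortas and varied widely. The globin total, the summed FPKM of the 4 genes, ran from 59.2 in saline-treated Plod1-/- replicate 2 to 9616 in Ang II-treated Plod1-/- replicate 3, a 162-fold range. It was 327, 199, 269, 149 and 1424 FPKM in saline-treated WT replicates 1 to 5 and 653, 219, 513, 182 and 505 FPKM in Ang II-treated WT mice. It was 164, 59.2, 1506, 129 and 81.8 FPKM in saline-treated and 1589, 756, 9616, 2366 and 3016 FPKM in Ang II-treated Plod1-/- mice. All 5 Ang II-treated Plod1-/- mice lay above all 5 Ang II-treated WT mice, whereas 1 mouse of each saline-treated group (WT replicate 5 and Plod1-/- replicate 3) reached the range of the Ang II-treated Plod1-/- mice. The 4 genes took between 0.0163% and 2.42% of the FPKM sum of a library.

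Hba-a1, an alpha chain gene, was at 125, 77.8, 108, 56.5 and 565 FPKM in WT replicates 1 to 5 under saline and at 206, 83.4, 187, 70.3 and 203 FPKM under Ang II. Among Plod1-/- mice it was at 60.3, 23.0, 602, 65.7 and 31.7 FPKM under saline and at 579.6, 331, 4256, 895 and 1131 FPKM under Ang II. Ang II-treated Plod1-/- mice were the highest group by median and did not overlap with Ang II-treated WT mice. Saline-treated WT replicate 5 and saline-treated Plod1-/- replicate 3 lay within their range. The other 3 groups overlapped one another. Hba-a2, the other alpha chain gene, had lower levels in the same order, with medians of 15.0 and 25.5 FPKM in WT mice and of 9.41 and 127 FPKM in Plod1-/- mice, saline first.

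Hbb-bs, a beta chain gene, was at 151, 91.3, 123, 71.5 and 652 FPKM in WT mice under saline and at 362, 105, 247, 88.8 and 229.9 FPKM under Ang II. In Plod1-/- mice it was at 83.6, 28.1, 700.4, 48.2 and 35.8 FPKM under saline and at 753, 342, 3763, 1153 and 1465 FPKM under Ang II. The lowest Ang II-treated Plod1-/- mouse, replicate 2, lay just below the highest Ang II-treated WT mouse, replicate 1. Hbb-bt, the other beta chain gene, had medians of 23.0 and 46.2 FPKM in WT mice and of 6.13 and 182 FPKM in Plod1-/- mice, saline first, and spanned 276-fold over the 20 mice.

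Alas2, the erythroid enzyme of heme synthesis, was at 4.00, 2.38, 3.34, 1.81 and 19.1 FPKM in WT mice under saline and at 12.7, 2.97, 10.5, 2.42 and 6.13 FPKM under Ang II. In Plod1-/- mice it was at 2.67, 0.841, 17.2, 2.47 and 0.505 FPKM under saline and at 16.4, 7.32, 100.4, 27.7 and 40.6 FPKM under Ang II. The mice that stood out were those with much globin RNA, namely WT replicate 5 and Plod1-/- replicate 3 under saline and Plod1-/- replicate 3 under Ang II.

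Slc4a1, the band 3 anion exchanger, was low in every group. It was at 0.0963, 0.159, 0.0301, 0.0608 and 0.377 FPKM in WT mice under saline, at 0.535, 0.0508, 0.110, 0.0428 and 0.0662 FPKM in those under Ang II and at 0.0933, 0.0207, 0.249, 0.0717 and 0.0146 FPKM in Plod1-/- mice under saline. In Ang II-treated Plod1-/- mice it was at 0.385, 0.371, 1.995, 0.389 and 1.25 FPKM, above every saline-treated Plod1-/- mouse. Only 2 of the 20 mice reached 1 FPKM, so Slc4a1 did not pass the filter of 1 FPKM in 5 mice in any comparison.

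Bpgm, the 2,3-bisphosphoglycerate enzyme, varied least. It was at 7.08, 4.48, 8.24, 8.99 and 12.0 FPKM in WT mice under saline and at 10.8, 7.18, 9.04, 8.08 and 8.17 FPKM under Ang II. Among Plod1-/- mice it was at 8.26, 7.23, 12.1, 7.05 and 7.52 FPKM under saline and at 11.6, 8.51, 29.4, 11.2 and 16.5 FPKM under Ang II. All 4 groups overlapped, and the 20 mice spanned 6.57-fold, against 95.6-fold for Hba-a2 and 276-fold for Hbb-bt, the narrowest and the widest of the globin genes.

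**Figure D1:**
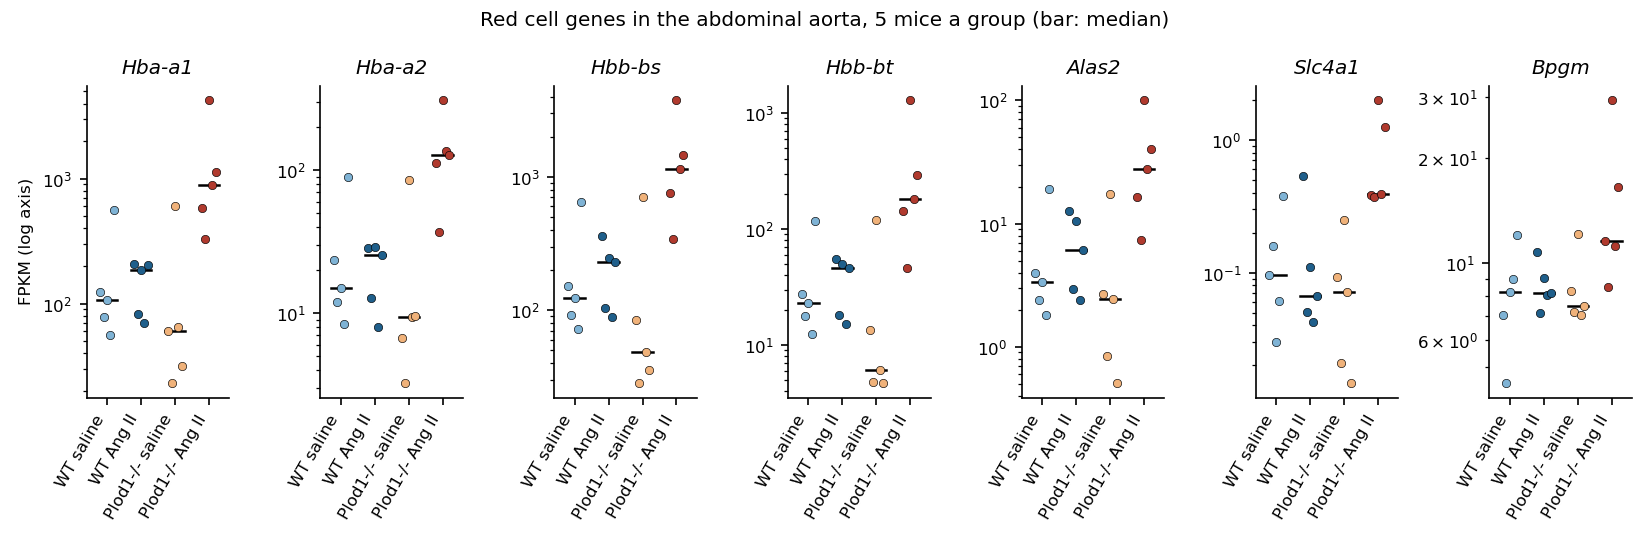
FPKM of the 7 red cell genes on log axes, with 1 point a mouse, 5 mice in each of the 4 groups and bars at the group medians. Ang II-treated Plod1-/- mice had the highest median for all 7 genes, and single mice of the saline-treated groups reached their range for every globin gene.

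Ang II against saline in Plod1-/- mice gave higher RNA for all 4 globin genes and Alas2. The mean globin total was 388 ± 626 FPKM (SD, n = 5) in the saline-treated mice and 3468 ± 3539 FPKM (SD, n = 5) in those given Ang II. Replicate 3 was the highest of both groups, and the medians were 129 and 2366 FPKM. On the log2(FPKM + 1) scale, on which changes at low levels come out too small, Hba-a1 rose by 3.74 (SE 0.89), and limma gave an adjusted p of 0.00657 over the 12333 genes tested. Hba-a2 rose by 3.24 (SE 0.77, adjusted p = 0.00639), Hbb-bs by 3.80 (SE 0.88, adjusted p = 0.00555) and Hbb-bt by 4.03 (SE 0.99, adjusted p = 0.00789). Alas2 rose by 2.95 (SE 0.76, adjusted p = 0.0101). Bpgm had a log2 fold change of 0.70 (SE 0.28, 95% interval 0.07 to 1.33) and did not pass, with an adjusted p of 0.0674. In this comparison 23.8% of the genes tested were higher and 20.1% lower at an adjusted p below 0.05, against 5 higher and 0 lower of the 6 red cell genes that passed the filter. With a log2 fold change above 1 as well, the shares were 8.38% of the genes tested and the same 5 genes. Slc4a1, below the filter, differed by 0.71 on the log2(FPKM + 1) scale with no overlap between the groups, at the smallest p that a two-sided exact permutation test of 5 against 5 mice can give (p = 0.00794). For each of the 6 genes that passed the filter, saline-treated replicate 3 alone lay within the range of the Ang II-treated mice, so that 0 of the 6 were free of overlap, whereas 14.2% of all genes tested were higher under Ang II without overlap. The median log2 fold change was 3.49 over the 6 genes and 0.05 over all genes tested. Without the 2 libraries with Xist RNA, 5 of the 6 genes still passed, with log2 fold changes of 3.64 for Hba-a1 (adjusted p = 0.0195), 3.66 for Hbb-bs (adjusted p = 0.0184) and 2.80 for Alas2 (adjusted p = 0.0262). Bpgm passed in 5 of 20 alternative settings, among them without saline-treated replicate 3 (0.83, adjusted p = 0.0491) and without Ang II-treated replicate 2 (0.87, adjusted p = 0.0284), and its adjusted p ran from 0.0166 to 0.15 over all of them.

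In WT mice, no red cell gene passed the same test. Hba-a1 had a log2 fold change of 0.09 (SE 0.56, 95% interval -1.14 to 1.31), Hba-a2 of -0.11, Hbb-bs of 0.25, Hbb-bt of 0.21, Alas2 of 0.37 (SE 0.54) and Bpgm of 0.12 (SE 0.20). The mean globin total was 414 ± 204 FPKM (SD, n = 5) with Ang II and 474 ± 536 FPKM (SD, n = 5) under saline, where replicate 5 carried much of the mean, and the medians had the opposite order, with 504.5 and 269 FPKM. Of the 6 genes that passed the filter, limma called 0 at an adjusted p below 0.05 and 0 at an unadjusted p below 0.05, while 16.5% of the 11994 genes tested were called higher and 21.5% called lower. The lowest adjusted p among the 6 genes was 0.59. The 95% intervals of the globin genes reached from a log2 fold change of -1.34 to 1.502, so changes within each gene's interval were not excluded. Slc4a1 differed by 0.01 on the log2(FPKM + 1) scale (exact permutation p = 0.881).

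Between the Ang II-treated groups, globin and Alas2 RNA was higher in Plod1-/- mice. Hba-a1 was higher by 2.82 on the log2 scale (SE 0.61, adjusted p = 0.00821, limma) and Hba-a2 by 2.59 (SE 0.52, adjusted p = 0.0061), both without overlap between the 2 groups. Hbb-bs was higher by 2.61 (SE 0.60, adjusted p = 0.0102), Hbb-bt by 2.69 (SE 0.74, adjusted p = 0.021) and Alas2 by 2.04 (SE 0.62, adjusted p = 0.0305), each with overlap. Bpgm differed by 0.65 (SE 0.27) and did not pass (adjusted p = 0.0891), and Slc4a1 differed by 0.63 on the log2(FPKM + 1) scale (exact permutation p = 0.0317, and 0.0794 without any one of WT replicates 2 to 5). Of the 12356 genes tested, 20.8% were called higher and 10.4% called lower in Plod1-/- mice, against 5 and 0 of the 6 red cell genes. With a log2 fold change above 1, the share was 7.45% of the genes tested and 5 of the 6. Among all genes tested, 10.4% were higher without overlap, against 2 of the 6. The median log2 fold change was 2.60 over the 6 genes and 0.12 over all genes tested. Without the library with Xist RNA in this comparison, Ang II-treated Plod1-/- replicate 1, the same 5 genes passed, with 3.001 for Hba-a1 (adjusted p = 0.00683) and 2.21 for Alas2 (adjusted p = 0.0268). The call of Alas2 was lost without any one of WT replicates 2, 4 or 5 or Plod1-/- replicates 3, 4 or 5, with log2 differences between 1.57 and 2.05 and adjusted p between 0.0583 and 0.0757, and that of Hbb-bt was lost without WT replicate 2 (2.49, adjusted p = 0.0539). Without Plod1-/- replicate 2, Bpgm passed (0.82, adjusted p = 0.0382). This comparison shares the Ang II-treated Plod1-/- mice with the one above.

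Between the saline-treated groups, none of the 6 red cell genes passed. The log2 differences, Plod1-/- minus WT, were -0.84 (SE 0.85) for Hba-a1, -0.76 for Hba-a2, -0.94 for Hbb-bs, -1.13 for Hbb-bt, -0.54 (SE 0.69) for Alas2 and 0.07 (SE 0.21) for Bpgm. The counts were 0 at an adjusted and 0 at an unadjusted p below 0.05 (limma), where 3.33% of the 11999 genes tested were called higher and 3.23% called lower. For Hba-a1 the 95% interval ran from -2.71 to 1.03. Without Plod1-/- replicate 5, the library with Xist RNA, the difference of Hba-a1 was -0.55 (adjusted p = 0.735). Slc4a1 differed by -0.07 on the log2(FPKM + 1) scale (exact permutation p = 0.5).

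The difference between the 2 responses to Ang II, Plod1-/- minus WT, was itself tested with all 20 mice. It was 3.66 (SE 1.12, adjusted p = 0.0159, limma) for Hba-a1, 3.35 (SE 1.01, adjusted p = 0.0151) for Hba-a2, 3.55 (SE 1.11, adjusted p = 0.0181) for Hbb-bs and 3.82 (SE 1.21, adjusted p = 0.019) for Hbb-bt on the log2 scale. Alas2 was at the threshold with 2.57 (SE 1.00, adjusted p = 0.0485), and Bpgm did not pass with 0.58 (SE 0.36, adjusted p = 0.214). Over the 13263 genes tested, 23.8% were called positive and 14.1% were called negative at an adjusted p below 0.05, against 5 and 0 of the 6 red cell genes. With a difference above 1 on the log2 scale as well, 9.69% were called, against the same 5. Without the 2 libraries with Xist RNA the difference was 3.55 for Hba-a1 (adjusted p = 0.0259) and 2.43 for Alas2, which no longer passed (adjusted p = 0.0732). The call of Alas2 was also lost without any one of 14 of the 20 mice, with values from 2.09 to 2.74 and an adjusted p of up to 0.0956. It held without saline-treated WT replicate 4, Ang II-treated WT replicate 1 or 3, saline-treated Plod1-/- replicate 3, or Ang II-treated Plod1-/- replicate 1 or 2.

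**Figure D2:**
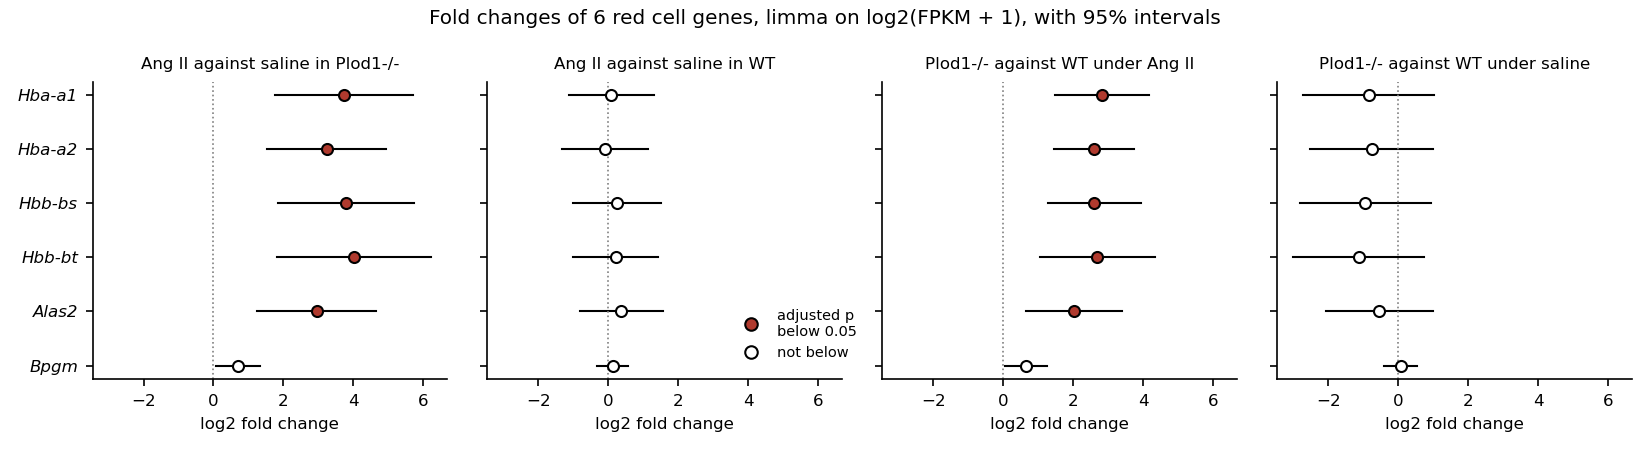
Log2 fold changes of the 6 red cell genes that passed the filter, from limma on log2(FPKM + 1), with 95% intervals as lines and filled points where the adjusted p was below 0.05. All 6 genes lie to the right of 0, with intervals that exclude 0, in both comparisons that involve Ang II-treated Plod1-/- mice. The points of the 4 globin genes and Alas2 are filled there, and those of Bpgm are not. Every interval includes 0 in WT mice and between the saline-treated groups.

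Whether the genes moved together was asked within groups, so that the group differences above did not enter. Each value on the log2(FPKM + 1) scale was replaced by its deviation from the mean of its group, and the 20 deviations were compared by permutation within groups (100000 resamples, two-sided). Over the 4 relations computed, Alas2 followed the globin total with a Pearson r of 0.977 (adjusted permutation p = 1.33e-05) and a Spearman rho of 0.973 (adjusted permutation p = 2e-05). Bpgm had an r of 0.779 (adjusted permutation p = 0.00018) and a rho of 0.677 (adjusted permutation p = 0.00249), and Slc4a1 an r of 0.692 (adjusted permutation p = 1.33e-05) and a rho of 0.636 (adjusted permutation p = 0.00306). The alpha and the beta globin totals were related with an r of 0.985 (adjusted permutation p = 1.33e-05) and a rho of 0.961 (adjusted permutation p = 2e-05). The raw p behind 1.33e-05 and 2e-05 was 1e-05, the smallest these permutations can give. The 2 mice farthest from the median globin deviation were saline-treated Plod1-/- replicate 3 and saline-treated WT replicate 5. Without them r was 0.97 for Alas2, 0.749 for Bpgm, 0.769 for Slc4a1 and 0.964 for alpha against beta. Without the 2 libraries with Xist RNA the 4 values of r were 0.979, 0.779, 0.694 and 0.985 in the same order.

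Pair by pair, the 6 pairs of globin genes had an r between 0.931 and 0.984, and the 21 pairs of all 7 genes between 0.581 and 0.984, with adjusted permutation p of at most 0.00084. The weakest pair was Hba-a2 with Slc4a1, whose level was a fraction of 1 FPKM in 18 of 20 mice. Reads that fit both copies enter the r within the alpha pair and within the beta pair, whereas the coding sequences of Hba-a1 and Hbb-bs were 60.5% identical with no aligned identical run over 14 bases. The genes also share each library and its FPKM scale, so that their values are not independent measurements of blood.

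The size of the slope separated Bpgm from the others. Over the 20 mice the log2 level of Alas2 rose by 0.98 and that of Slc4a1 by 0.91 for each unit of the log2 globin total, close to proportion. That of Bpgm rose by 0.24. On the linear scale Alas2 gained 1.06 FPKM, Slc4a1 0.0213 FPKM and Bpgm 0.236 FPKM for each 100 FPKM of globin, with intercepts at no globin of 1.56, 0.0655 and 7.37 FPKM. In the 10 mice with the lowest globin total, Bpgm stayed between 4.48 and 8.99 FPKM, Alas2 between 0.505 and 4.00 FPKM and Slc4a1 between 0.0146 and 0.159 FPKM. These lines describe the 20 points and pool the 4 groups.

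**Figure D3:**
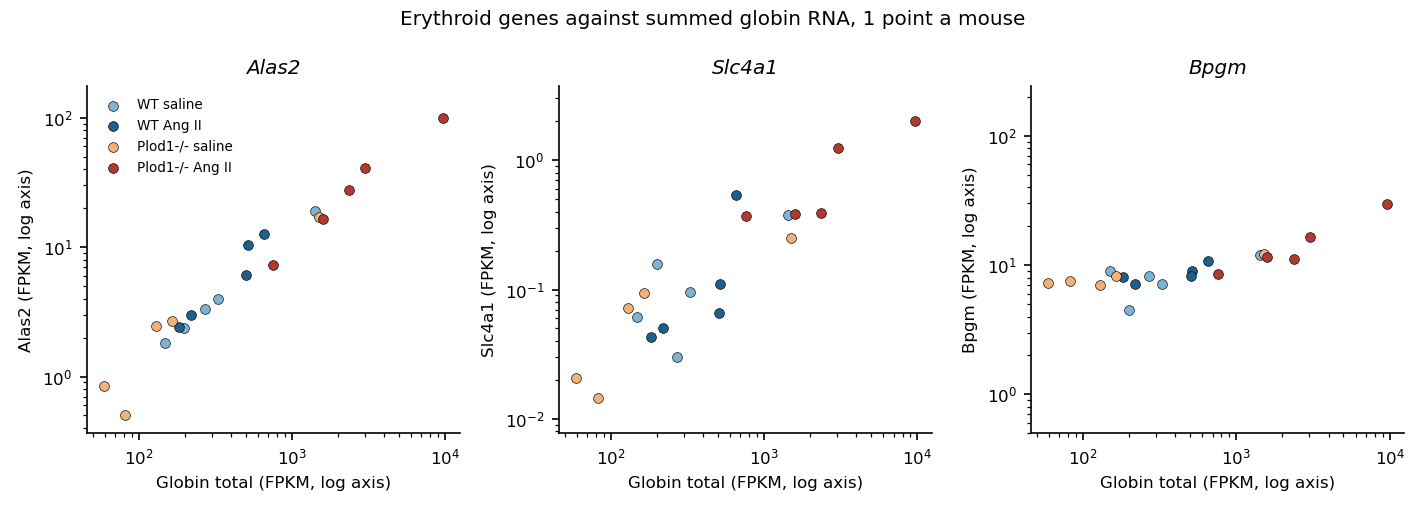
FPKM of Alas2, Slc4a1 and Bpgm against the summed FPKM of the 4 globin genes, 1 point a mouse, coloured by group, on log axes that span the same number of decades. Alas2 rises almost in proportion to the globin total from 59.2 to 9616 FPKM, Slc4a1 follows with more scatter, and Bpgm stays level until the globin total is high.

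The balance of the hemoglobin chains spanned a narrower range than their levels. Alpha over beta globin RNA was between 0.563 and 1.38 in the 20 mice, with a median of 0.81, while the globin total spanned 162-fold. It was 0.824 ± 0.0299 (SD, n = 5) in WT mice under saline and 0.731 ± 0.101 (SD, n = 5) with Ang II, and 0.945 ± 0.271 (SD, n = 5) in Plod1-/- mice under saline and 0.823 ± 0.0992 (SD, n = 5) with Ang II. The widest group was saline-treated Plod1-/-, in which replicate 4 stood at 1.38 and replicate 1 at 0.689. Hba-a1 made up 76.7% to 93.2% of alpha and Hbb-bs 74.5% to 88.7% of beta globin RNA, both with the caution on shared reads.

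Alas2 was at 1.22, 1.199, 1.24, 1.22 and 1.34 FPKM per 100 FPKM of globin in WT mice under saline and at 1.95, 1.36, 2.04, 1.33 and 1.22 under Ang II. In Plod1-/- mice it was at 1.63, 1.42, 1.15, 1.90 and 0.617 under saline and at 1.03, 0.968, 1.04, 1.17 and 1.35 under Ang II. The 4 groups overlapped, and the values spanned 3.3-fold, with the lowest in a library that held Xist RNA. Bpgm per 100 FPKM of globin was 12.2 in the mouse with the least globin RNA and 0.306 in the mouse with the most. It was 6.54 ± 4.35 (SD, n = 5) in Plod1-/- mice under saline and 0.636 ± 0.313 (SD, n = 5) with Ang II. Over 24 tests of 6 ratios in 4 comparisons, the lowest adjusted p was 0.0952 (two-sided exact permutation tests on the log2 ratios). It was reached by Bpgm per 100 FPKM of globin between the Ang II-treated groups and by the Hbb-bs share between the saline-treated groups (raw exact permutation p = 0.00794 for both, the smallest possible).

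**Figure D4:**
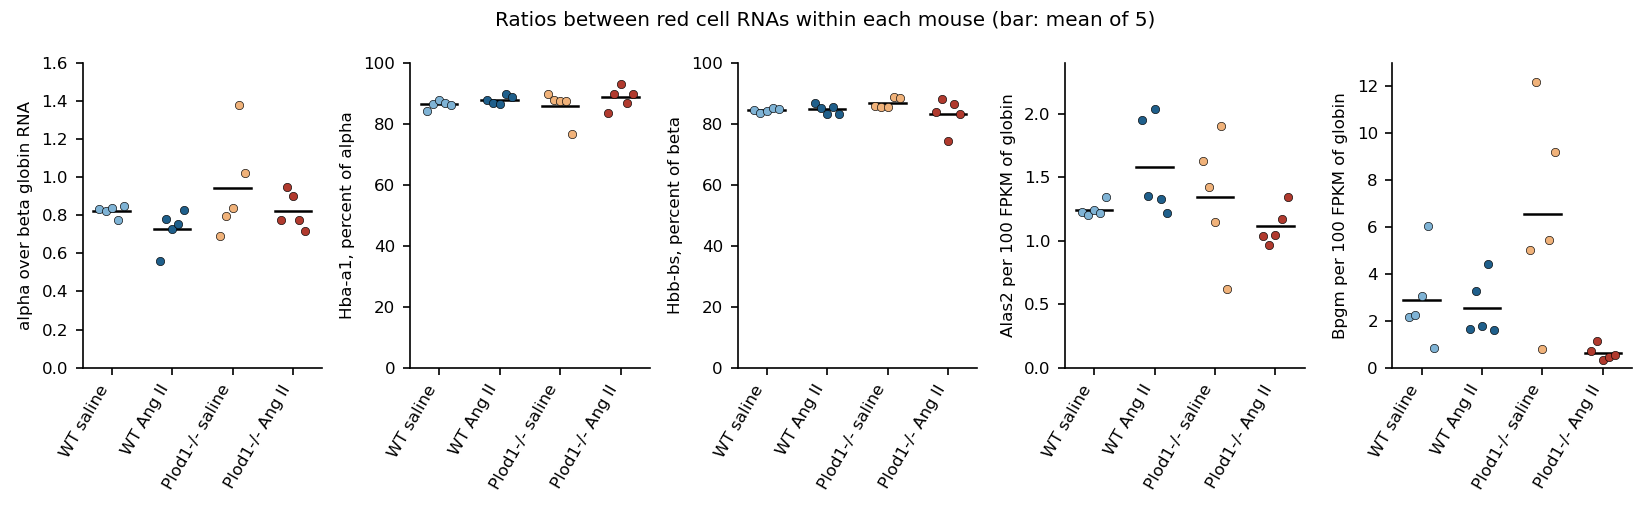
Ratios between red cell RNAs in each mouse, 5 mice a group, with bars at the group means and axes from 0. Alpha over beta globin and the shares of Hba-a1 and Hbb-bs stay in narrow bands, whereas Bpgm per 100 FPKM of globin is at 1.13 or below in Ang II-treated Plod1-/- mice and reaches 12.2 in saline-treated Plod1-/- mice.

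Other lists of red cell genes gave mixed counts. Embryonic and minor globins were at or near 0, since none of the 5 genes measured reached 1 FPKM in any mouse. Their summed level was 0.164 to 0.449 FPKM in WT mice under saline and 0.0587 to 0.475 FPKM under Ang II, and 0 to 0.63 FPKM in Plod1-/- mice under saline and 0 to 1.98 FPKM under Ang II. Of 16 genes of the red cell membrane and skeleton in the files, 5 passed the filter for Ang II against saline in Plod1-/- mice. Of these 0 rose and 2 fell, Tmod1 (-0.89), which caps actin filaments, and Dmtn (-0.62), which bundles actin. The median of the 5 was -0.06. In WT mice 3 of 5 tested rose and 1 fell. Among all genes tested, 23.8% were called higher and 20.1% lower in Plod1-/- mice, and 16.5% and 21.5% in WT mice.

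Genes of nucleated red cell precursors differed in level. Klf1, a transcription factor of the erythroid line, was at most 0.373 FPKM and Gata1, another one shared with platelet precursors, at most 0.457 FPKM in any of the 20 mice. Of 12 genes of the erythroid transcription factor and precursor list in the files, 5 stayed below 1 FPKM in all mice. The summed level of the 12 was 5.27 to 6.49 FPKM under saline and 5.45 to 12.3 FPKM under Ang II in WT mice. It was 4.41 to 6.28 FPKM under saline and 10.8 to 19.7 FPKM under Ang II in Plod1-/- mice, without overlap in the latter. For single genes, 14.2% of all genes tested were higher without overlap in that comparison. Of the 12, 4 were tested for Ang II against saline in Plod1-/- mice, and Zfpm1 (1.13, adjusted p = 0.0267), a partner of GATA factors, and Tfrc (0.71, adjusted p = 0.00941), the transferrin receptor of dividing cells in general, rose. Their means in Ang II-treated Plod1-/- mice, 4.09 and 3.425 FPKM, were the largest of the 12. In Plod1-/- mice mean Klf1 was 0.161 FPKM under saline and 0.118 FPKM under Ang II, and mean Gata1 was 0.0769 and 0.212 FPKM. All 11 heme synthesis genes other than Alas2 were tested. In Plod1-/- mice 2 rose, among them Slc25a37 (0.87), a mitochondrial iron carrier, and 2 fell, Slc25a38 (-0.45), a glycine carrier, and Ppox (-0.38), another enzyme, with a median of 0.05 beside 0.05 for all genes tested. Alas1, the form of the Alas2 enzyme that other tissues use, had a log2 fold change of 0.66 and did not pass (adjusted p = 0.0718). In WT mice 6 of the 11 rose under Ang II, Alas1 (1.16) and Alad (1.10) the most, where Alas2 did not pass, and the median was 0.45 beside -0.14 for all genes tested. Of the list of red cell glycolysis, carbonic anhydrase and antioxidant genes, 5 were tested in Plod1-/- mice, and Car2 (1.36), a carbonic anhydrase, Blvrb (1.26), a biliverdin reductase, and Prdx2 (0.48), a peroxide-reducing enzyme, rose (median of the 5 0.88). Car2 was at most 1.06 FPKM in saline-treated Plod1-/- mice and passed the filter through the Ang II-treated ones. In WT mice Car2 was not tested, with means of 0.351 FPKM under saline and 3.29 FPKM under Ang II. The difference of its responses was -0.23 and did not pass (adjusted p = 0.722, limma). Beside these counts, 23.8% of all genes tested were called higher and 20.1% lower in Plod1-/- mice, with 16.5% and 21.5% in WT mice.

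Most genes tested that handle free heme and hemoglobin rose in Plod1-/- mice. Of 11 tested, 8 rose and 0 fell under Ang II (median log2 fold change 1.22), with Hmox1 (6.22), which breaks down heme, Hp (5.38), which binds free hemoglobin, Slc40a1 (2.79), an iron exporter, and Ftl1 (2.41), a ferritin chain, changing the most. In WT mice 1 of 9 rose, Hp (4.04, adjusted p = 0.00596), and Slc40a1 was not among the 9 tested. Slc40a1 was also not among the 9 genes tested between the saline-treated groups. Such genes passed the filter in Plod1-/- mice only through the Ang II-treated mice. The count of 8 was thus partly fixed in advance and is not directly comparable with the count in WT mice. Among all genes tested, 23.8% were called higher and 20.1% lower in Plod1-/- mice, and 16.5% and 21.5% in WT mice. Within groups, the deviations of Hmox1 were related to those of the globin total with an r of 0.234 (adjusted permutation p = 0.703).

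Markers of other blood cells moved in the same comparisons. Of the neutrophil list, 6 of 6 genes tested rose under Ang II in Plod1-/- mice (median 4.44), with the calprotectin chains S100a9 (6.43) and S100a8 (5.80), Il1r2 (4.49) and Csf3r (4.40) in front. The summed level of all 13 was 4.72 to 62.1 FPKM under saline and 7.9 to 227 FPKM under Ang II in WT mice, and 1.66 to 4.22 FPKM under saline and 167 to 764 FPKM under Ang II in Plod1-/- mice, and Ly6g was listed at 0 in 11 of the 20 mice. Of the platelet list 6 of 7 rose (median 1.94), with platelet factor 4, Pf4 (4.93), Ppbp (4.41), Gp9 (2.25) and Treml1 (1.94) in front. The summed level of all 11 was 44.3 to 95.9 FPKM under saline and 35.2 to 117 FPKM under Ang II in WT mice, and 17.7 to 46.1 FPKM under saline and 189 to 1081 FPKM under Ang II in Plod1-/- mice. Both lists had 0 genes called in WT mice under Ang II, out of 2 and 5 tested. Il1r2, Csf3r and Treml1 reached at most 0.399, 0.623 and 0.641 FPKM in saline-treated Plod1-/- mice. Such genes passed the filter only through the Ang II-treated mice, so these counts were partly fixed in advance. Between the Ang II-treated groups 6 of 7 neutrophil and 3 of 7 platelet genes tested were called higher in Plod1-/- mice. The difference of the responses was called positive for 7 of 7 and 6 of 8. The shares of all genes called higher were 23.8% in Plod1-/- mice, 16.5% in WT mice and 20.8% between the Ang II-treated groups. For the difference of the responses 23.8% were called positive. Of the lists of T and natural killer cells and of B cells, 0 of 1 and 0 of 2 genes tested passed in Plod1-/- mice. In WT mice the 1 B cell gene tested, Ighm, an antibody heavy chain, rose by 3.03 (adjusted p = 0.00339, limma), and the difference of its responses was called negative (-3.01, adjusted p = 0.0115). The part of these cells in the globin result was not tested.

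Mouse by mouse, the r of these lists with the globin total was below the 0.977 of Alas2. With 15 relations between summed lists, or single measures, and the globin total, the neutrophil sum had an r of 0.568 (adjusted permutation p = 0.00825) and a rho of 0.538 (adjusted permutation p = 0.132), and the embryonic globin sum, from levels near 0, an r of 0.731 (adjusted permutation p = 0.00825) and a rho of 0.668 (adjusted permutation p = 0.0505). Without the same 2 mice r was 0.527 and 0.805. The remaining 13 did not pass. Each list entered as a sum, which weighs most the genes with the highest FPKM. In Ang II-treated Plod1-/- mice Aqp1 averaged 104 FPKM, where the red cell membrane and skeleton sum averaged 132 FPKM. Gpx1 averaged 410 FPKM there, where the glycolysis, carbonic anhydrase and antioxidant sum averaged 579 FPKM. The r of these sums thus says little about the other genes of those lists. Platelets had an r of 0.372 (adjusted permutation p = 0.471), T and natural killer cells of 0.583 (adjusted permutation p = 0.126), endothelium of 0.212 and smooth muscle of -0.06. The summed FPKM of mitochondrial genes had an r of -0.12. Their share of the FPKM sum was 11.1% ± 2.94 (SD, n = 5) in WT mice under saline and 23.3% ± 5.78 (SD, n = 5) with Ang II. For Plod1-/- mice the share came to 13.4% ± 2.37 (SD, n = 5) in the saline group and to 13.4% ± 4.57 (SD, n = 5) with Ang II. Whether r differs between these lists and Alas2 was not tested.

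**Figure D5:**
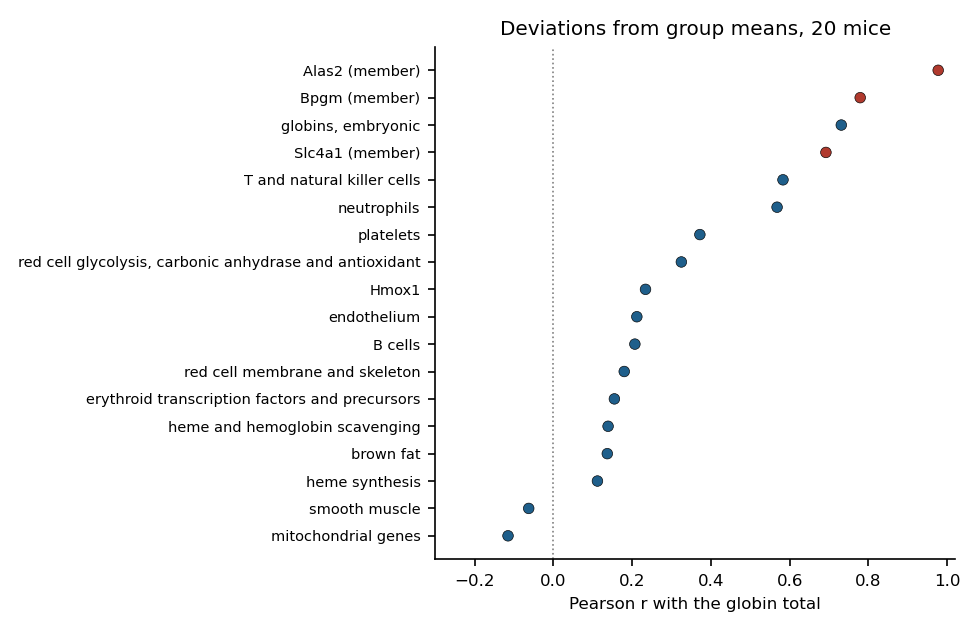
Pearson r of the globin total with 3 red cell genes (red) and with 15 other measures (blue), over deviations from group means of log2(FPKM + 1) in 20 mice. Alas2 lies at 0.977, the next points are Bpgm at 0.779 and the embryonic globin sum at 0.731, and the smooth muscle and mitochondrial points lie just below 0. Each list enters as a sum, which weighs most the genes with the highest FPKM.

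Among lists of vessel wall and fat cells, smooth muscle genes fell and endothelial genes rose or did not pass in Plod1-/- mice. For Ang II against saline in Plod1-/- mice, 7 of 8 smooth muscle genes fell (median -1.89), 5 of 9 endothelial genes rose (median 0.70) and 2 of 7 brown fat genes rose, beside 23.8% called higher and 20.1% called lower over all genes tested. In WT mice 5 of 8 smooth muscle genes fell (median -0.85), 4 of 9 endothelial genes rose and 1 fell, and 6 of 7 brown fat genes rose (median 4.41), beside 16.5% called higher and 21.5% called lower over all genes tested. The part of a changed makeup of the tissue in the globin result was not tested.

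The genes most like the globin total over the 20 within-group deviations were searched among 13257 genes with at least 1 FPKM in 5 mice. None reached an r of 0.9, where Alas2 had 0.977, and the median r over all of them was -0.02. The 4 globin genes make up the total, so their own r with it is no comparison. Among the 10 with the highest r, Ube2l6, a ubiquitin-conjugating enzyme, had an r of 0.861 and a level of 10.5 to 70.4 FPKM. It rose under Ang II in Plod1-/- mice by 1.19 (adjusted p = 0.0213, limma). Lower values of r were those of Vamp8 (0.783), Gm12250 (0.774), Irgm1 (0.771), Irgm2 (0.755), Igtp (0.749), Gbp5 (0.746), the beta-tubulin gene Tubb1 (0.731) and Gbp3 (0.727). Vamp8, Gm12250, Irgm1, Irgm2, Igtp and Gbp3 had log2 fold changes between -0.26 and 0.80 in that comparison and did not pass, and Gbp5 and Tubb1 were below the filter. These 10 genes were ranked on the same mice, and no test is attached to the ranking.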

How the data were processed

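RNA of 20 abdominal aortas was sequenced. Per the labels and the study's methods, the authors removed ribosomal reads, aligned the rest to mm10 with HISAT2 and deposited FPKM per gene from Cuffquant and Cuffnorm. The submitters' processing notes name Bowtie2 2.2.3, HISAT2 2.1.0 and HTSeq 0.6.0. Read counts were not used here, so no counting interval is given. FPKM sums were 344207 to 437790 per library. Each table held 43422 genes.

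Groups came from the labels, with 5 mice each and no library left out. Log2(FPKM + 1) of genes with at least 1 FPKM in at least 5 mice of a comparison was tested with limma 3.58.1 (trend, R 4.3.3) and the Benjamini-Hochberg adjustment over all genes tested, with calls at an adjusted p below 0.05. The authors' own test on read counts was not used, because the values are FPKM. The p-values measure the spread among these mice. Slc4a1, ratios and correlations were tested by permutation. The red cell genes and the other gene lists were chosen with earlier results of these data known, and the genes named were taken by a fixed rule: the 7 genes, up to 4 called genes of each other list by size of fold change, Hmox1, Hp, Klf1, Gata1, Alas1, Pf4, Ppbp, S100a8 and S100a9 whatever their values, the 10 genes most like the globin total, and Plod1 and Xist as checks. Some genes that this rule takes are not reported here. TATAA and the 200-base window were chosen after the sequences were seen, and Apex2 was added for its overlap with Alas2. Gpx1 was added for its share of the sum of its list. Alternatives were a pseudocount of 0.1, no filter, a replicate block, other scalings, weights, 1 fit for all groups and leaving out libraries. The steps were tested on simulated data. Figures were drawn with matplotlib 3.10.9.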

Additional observations from a re-analysis of the deposited data

Results flagged for a closer look

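Single mice stood far from the other 4 of their group in 14 of the 28 sets of values tested on the FPKM scale (Dixon's ratio above 0.71), and in 2 on the log2 scale. Chance gives about 1 in 20. Saline-treated WT replicate 5 stood apart in Hba-a1 (565.3 FPKM), Hba-a2 (89.56 FPKM), Hbb-bs (652.2 FPKM), Hbb-bt (117.1 FPKM) and Alas2 (19.12 FPKM). Saline-treated Plod1-/- replicate 3 stood apart in the same genes, with 601.5, 85.58, 700.4, 118.7 and 17.24 FPKM in that order, and in Bpgm (12.08 FPKM). Ang II-treated Plod1-/- replicate 3 stood apart in Hba-a1 (4256 FPKM) and Hbb-bt (1287 FPKM), and Ang II-treated WT replicate 1 in Slc4a1 (0.5346 FPKM).

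The response to Ang II differed between the genotypes by the interaction test in limma. The difference, Plod1-/- minus WT on the log2 scale, was 3.66 for Hba-a1, 3.35 for Hba-a2, 3.55 for Hbb-bs, 3.82 for Hbb-bt and 2.57 for Alas2. The call of Alas2 was lost in 18 of 29 alternatives, and those of Hbb-bs (adjusted p = 0.0507) and Hbb-bt (adjusted p = 0.0527) were lost with no filter on low values.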

How the results depend on the processing

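In Plod1-/- mice, the calls of the 4 globin genes and Alas2 for Ang II against saline held in all 20 alternatives, and 5 or 6 red cell genes were called. Between the Ang II-treated groups 3 were called with no filter on low values (Hbb-bt adjusted p = 0.0634, Alas2 adjusted p = 0.0871, limma) and 3 to 6 with 1 mouse left out, the 3 being without WT replicate 2. For the interaction 2 were called with no filter (Hbb-bs adjusted p = 0.0507, Hbb-bt adjusted p = 0.0527). With no filter, many more low genes enter the adjustment. The call of Alas2 was lost in 18 of 29 alternatives for the interaction and in 7 of 20 between the Ang II-treated groups. No red cell gene was called in WT mice or between the saline-treated groups under any alternative run. The 4 correlations kept their sign and side of the threshold in all 27 alternatives, with r of 0.959 to 0.986 for Alas2, 0.574 to 0.851 for Slc4a1, 0.567 to 0.846 for Bpgm and 0.975 to 0.992 for alpha with beta.

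Values without a call changed sign for Ang II against saline in WT mice. With FPKM rescaled without the globin genes, the log2 fold change was -0.0871 for Hba-a1, -0.0366 for Bpgm and -0.0115 for Slc4a1. With weights per mouse Bpgm was -0.0080, and with a pseudocount of 0.1 Slc4a1 was -0.0178. With 1 mouse left out, Hba-a1 ran from -0.20 to 0.62, Hba-a2 from -0.40 to 0.41, Hbb-bs from -0.0163 to 0.78, Hbb-bt from -0.0659 to 0.72, Bpgm from -0.0521 to 0.26 and Slc4a1 from -0.0932 to 0.0802. Between the saline-treated groups Bpgm was -0.0288 with weights per mouse and ran from -0.10 to 0.21 with 1 mouse left out, and Slc4a1 from -0.12 to 0.0017. The cause was not tested.

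The replicate numbers did not pair the mice: 8 of 30 correlations between same-numbered mice were above 0.1, over a range of -0.332 to 0.452. With the replicate number as a block, 6 red cell genes were called for Ang II against saline in Plod1-/- mice, 0 in WT mice, 5 between the Ang II-treated groups, 0 between the saline-treated groups and 5 for the interaction. The sixth was Bpgm (adjusted p = 0.0166).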
